A study of Homo sapiens with 8 samples.

Results

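The miR-106b-25 and miR-106a-363 clusters are paralogous groups of miRNA hairpins that share seeds with the miR-17-92 cluster. Their members were chosen by name: hsa-miR-106b-5p, hsa-miR-106b-3p, hsa-miR-93-5p and hsa-miR-25-3p from miR-106b-25, and hsa-miR-106a-5p, hsa-miR-18b-5p, hsa-miR-20b-5p and hsa-miR-363-3p from miR-106a-363. Of these 8 names, 7 matched spots on the arrays, which carry 2006 human miRNAs in all. hsa-miR-106a-5p was not analysed here.

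BT474 and SKBR3 are HER2-positive breast cancer cell lines, BT474 also being hormone receptor positive and SKBR3 not. Each was kept for 144 h in 6 μg/mL trastuzumab, a monoclonal antibody against HER2, or in PBS, the vehicle, and miRNAs were read on one-colour arrays. The labels give 8 arrays, as 2 biological replicates of each treatment in each line. The array labelled SKBR3 PBS replicate 1 held the same file as BT474 PBS replicate 1, so 7 distinct arrays were used, with 1 SKBR3 PBS array, and the calls that involve SKBR3 and the ratios to hsa-miR-25-3p are also given with the copy under its label.

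All arrays were on 1 slide. PBS arrays lay in slide row 2 and trastuzumab arrays in slide row 1, so treatment and row cannot be told apart. BT474 arrays lay in slide columns 1 and 2 and SKBR3 arrays in columns 3 and 4, so line and column cannot be told apart either.

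A miRNA acts through its seed, bases 2 to 8 from its 5′ end, which pairs with target mRNAs, and paralogs with one seed share many targets. Members of the miR-17 family repress cell cycle inhibitors such as CDKN1A, and the miR-106b-25 products were also described as brakes on TGF-β signalling and on the pro-apoptotic protein BIM. miR-106b-25 lies within MCM7, the gene of a subunit of the replicative DNA helicase, and is transcribed with it. miR-106a-363 lies on the X chromosome in a non-coding host gene, and miR-17-92 in the host gene MIR17HG.

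The mature sequences are shown because the members fall into 4 seeds, of which AAAGUGC and AUUGCAC occur in both clusters. They are RefSeq sequences on GRCh38.p14, where all 8 members had an entry. They run 5′ to 3′ with the seed in capitals. The first 4 carry the seed AAAGUGC, hsa-miR-18b-5p carries AAGGUGC, the next pair carries AUUGCAC, and hsa-miR-106b-3p, from the opposite arm of its hairpin, carries CGCACUG.
hsa-miR-106b-5p: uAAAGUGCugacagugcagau
hsa-miR-93-5p: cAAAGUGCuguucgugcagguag
hsa-miR-20b-5p: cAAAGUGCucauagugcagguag
hsa-miR-106a-5p: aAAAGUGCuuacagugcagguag
hsa-miR-18b-5p: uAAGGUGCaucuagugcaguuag
hsa-miR-25-3p: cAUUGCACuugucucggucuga
hsa-miR-363-3p: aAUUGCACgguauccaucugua
hsa-miR-106b-3p: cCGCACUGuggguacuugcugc

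The 3 hairpins of miR-106b-25 span 515 bases at chr7:100093560-100094074 on the minus strand, inside MCM7 (chr7:100092728-100101397). The 6 hairpins of miR-106a-363 span 901 bases at chrX:134169378-134170278 on the minus strand, inside MIR106AHG (chrX:134169150-134174088). The order along the transcript is MIR106B, MIR93 and MIR25 in the first cluster, and MIR106A, MIR18B, MIR20B, MIR19B2, MIR92A2 and MIR363 in the second. Each cluster therefore starts with hairpins of the AAAGUGC or AAGGUGC type and ends with one of the AUUGCAC type. Hairpins are shown for a gene with both arms among the members (MIR106B) and for MIR363, of which no arm was detected, with the members in capitals.
MIR106B, chr7:100093993-100094074: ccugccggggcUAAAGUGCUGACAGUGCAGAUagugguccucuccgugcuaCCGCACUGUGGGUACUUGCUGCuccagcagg
MIR363, chrX:134169378-134169452: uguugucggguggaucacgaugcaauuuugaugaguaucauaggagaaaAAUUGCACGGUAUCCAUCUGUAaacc

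Detection split the members cleanly. Of the 7 members, 5 were detected on all 7 distinct arrays: hsa-miR-106b-5p, hsa-miR-93-5p and hsa-miR-25-3p from miR-106b-25, and hsa-miR-18b-5p and hsa-miR-20b-5p from miR-106a-363. Over the whole array, 173 of 2006 miRNAs (8.62%) were detected on all 7. The other 2 members, hsa-miR-106b-3p and hsa-miR-363-3p, were detected on none, in either line or treatment. From the MIR106B hairpin shown above, the 5p arm was thus read on every distinct array and the 3p arm on none.

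Single probes were read for both undetected members. The 2 probes of hsa-miR-363-3p gave signals of -5.56 to 12.8 and 2.27 to 24.5, and the 4 probes of hsa-miR-106b-3p between -9.30 and 10.4, while the lowest signal of a detected miRNA on an array was 19.3 to 28.3. The second probe of hsa-miR-363-3p thus reached the range of the weakest detected miRNAs, and its deposited log2 values were 5.31 to 5.88 in BT474 and 6.18 to 7.02 in SKBR3. In the log2 values deposited by the authors, averaged over its probes, hsa-miR-363-3p lay at 5.20 to 5.84 on the BT474 arrays and at 6.04 to 6.18 on the SKBR3 arrays, where the median of all probes was 5.34 to 5.35 and 5.28. Those values were normalized separately for each line, so the lines are not set against each other.

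The summed signal of hsa-miR-106b-5p, the first product of the MCM7-hosted cluster, was 8291 and 11073 on the BT474 PBS arrays, 8812 and 11745 on the BT474 trastuzumab arrays, 3339 on the SKBR3 PBS array and 4637 and 3993 on the SKBR3 trastuzumab arrays. These are intensities before scaling between arrays, and each carried an error of 7.56 to 7.72% from the extraction software. In the same order, hsa-miR-93-5p gave 3986, 5142, 3922, 4743, 1560.1, 1998 and 1780.3. All 4 BT474 arrays lay above all 3 SKBR3 arrays for both miRNAs, while PBS and trastuzumab arrays of BT474 overlapped.

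hsa-miR-25-3p, the last product of the cluster and the one with the AUUGCAC seed, gave 3840.3 and 4897 in BT474 PBS, 4608 and 5404 in BT474 trastuzumab, 2169.7 in SKBR3 PBS, and 2813 and 2585 in SKBR3 trastuzumab. Its lowest BT474 signal was 1.37 times its highest SKBR3 signal, against 1.79 times for hsa-miR-106b-5p and 1.96 times for hsa-miR-93-5p. The 2 detected members of miR-106a-363 showed the same order of lines. hsa-miR-20b-5p gave 829.9, 1178, 1037 and 1268 in BT474, PBS arrays first, and 368, 488 and 451.3 in SKBR3. hsa-miR-18b-5p gave 151, 229, 144 and 170.2 in BT474 and 79.6, 88.5 and 75.8 in SKBR3, with software errors of 11.2 to 17.3%.

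**Figure D1:**
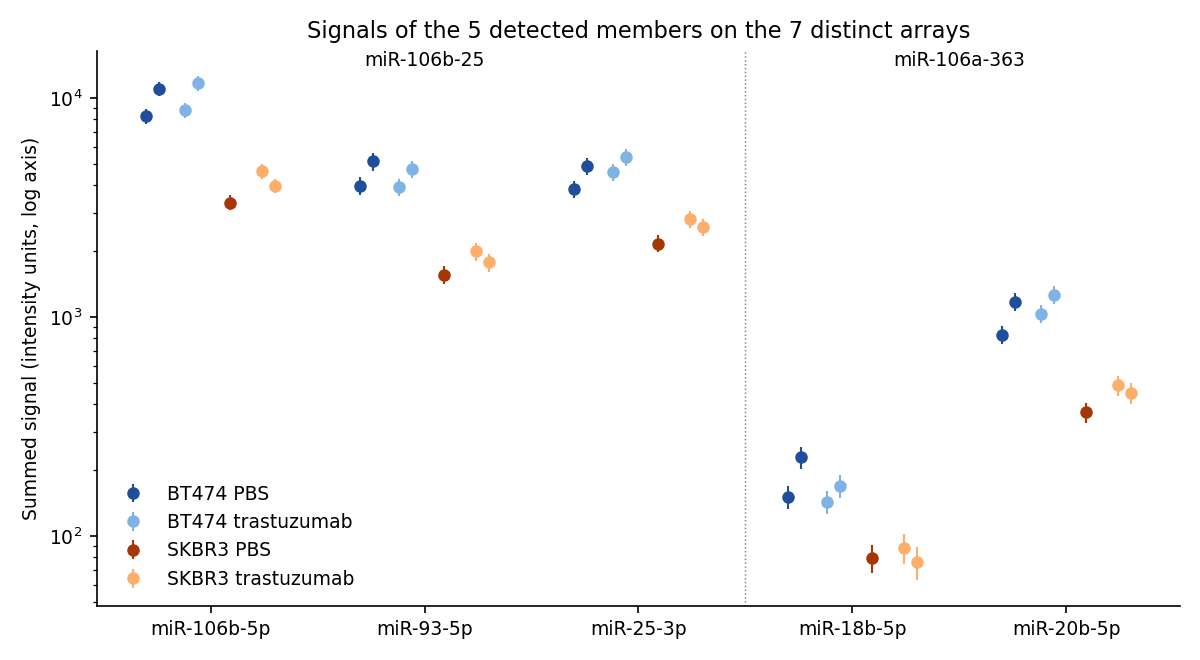
Summed signal before scaling (intensity units, log axis) of the 5 members detected on all 7 distinct arrays, 1 point per array, with bars for the extraction software's error. BT474 points lie above SKBR3 points for each member, as they did for 53.2% of the 173 miRNAs detected on all arrays.

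Signals were lower on SKBR3 arrays across many miRNAs, so this order alone is not particular to the members. Of the 173 miRNAs detected on all 7 arrays, 92 (53.2%) had every BT474 signal above every SKBR3 signal before scaling, and so did all 5 detected members. Random orders separate 4 from 3 arrays, in either direction, with a probability of 0.0571 (exact), while the 92 were counted only with BT474 above SKBR3. The median difference between the lines over the 173 miRNAs was 0.71 on the log2 scale without normalization, -0.20 after scaling to the 75th percentile and -0.42 after quantile normalization, the main setting. The members are therefore also given relative to that median.

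After quantile normalization, the 3 detected members with the seed AAAGUGC were called higher in BT474 than in SKBR3, by calls that several alternatives below lose. The log2 difference was 0.30 ± 0.09 (SE) for hsa-miR-106b-5p (limma, Benjamini-Hochberg adjusted p = 0.0483), 0.23 ± 0.06 for hsa-miR-93-5p (adjusted p = 0.0355) and 0.27 ± 0.08 for hsa-miR-20b-5p (adjusted p = 0.0462), with 4 BT474 and 3 SKBR3 arrays. For hsa-miR-106b-5p and hsa-miR-20b-5p each normalized BT474 value lay above each SKBR3 value, while hsa-miR-93-5p had 11.56 on BT474 trastuzumab replicate 2 and on all 3 SKBR3 arrays. The direction of these 3 was the same under each scaling, with differences of 0.47, 0.46 and 0.45 on the 75th percentile scale and 1.38, 1.37 and 1.36 without normalization.

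The members with the other seeds were not called. hsa-miR-25-3p differed by -0.05 (95% confidence interval -0.22 to 0.13) and hsa-miR-18b-5p by -0.29 (-0.66 to 0.09), and the sign of both turned on the 75th percentile scale (0.04 and 0.17) and without normalization (0.94 and 1.08). Thus 3 of 5 members were called, all higher in BT474. In the same fit 209 of 305 miRNAs tested (68.5%) were called, 102 of them (33.4%) higher in BT474, so a call between the lines was common on these arrays. The 305 include miRNAs at the floor in one line, and among the 173 detected on every array, like the members, 144 were called, 52 of them higher in BT474.

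Relative to the median of the 173 miRNAs, all 5 members lay on the BT474 side under each of the 3 scalings. hsa-miR-106b-5p lay above it by 0.72, 0.67 and 0.67 under quantile, 75th percentile and no scaling, hsa-miR-20b-5p by 0.69, 0.65 and 0.65, and hsa-miR-93-5p by 0.65, 0.66 and 0.66. hsa-miR-25-3p lay closer, by 0.37, 0.23 and 0.23, and so did hsa-miR-18b-5p, by 0.13, 0.37 and 0.37. Within the 173 miRNAs hsa-miR-106b-5p stood at percentile 75.7 of the quantile normalized differences and hsa-miR-25-3p at 61.3, so that none of the members was at the edge of the distribution.

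**Figure D2:**
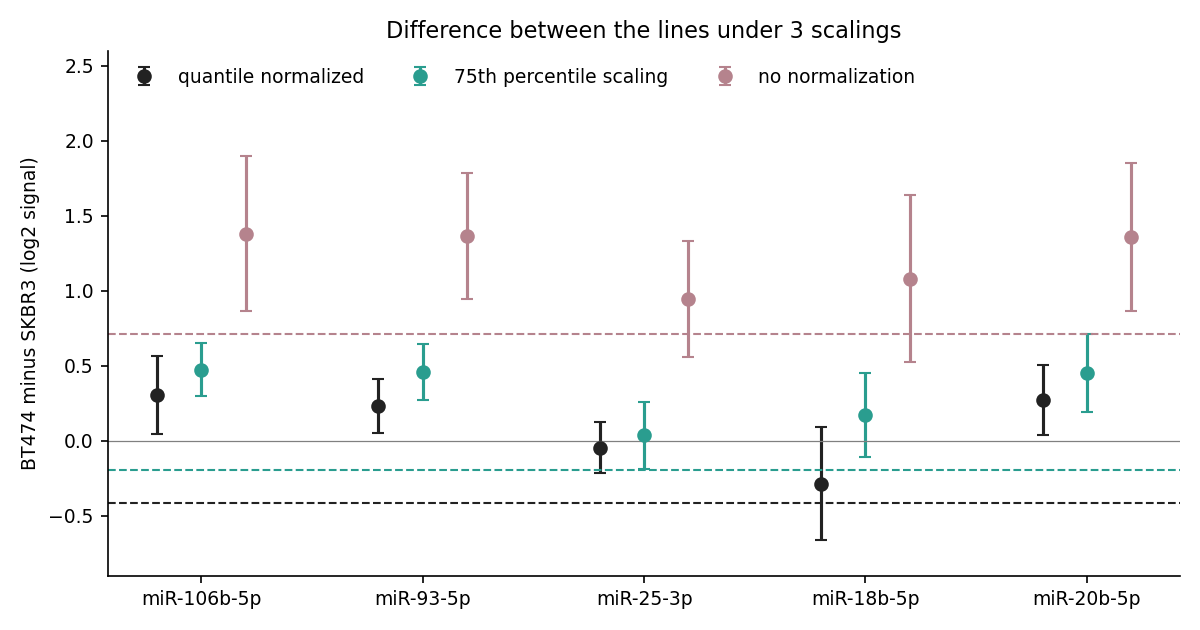
BT474 minus SKBR3 difference (log2 signal) of the 5 detected members in limma fits to 7 arrays, with 95% confidence intervals, under 3 scalings. Dashed lines mark the median of 173 miRNAs in the matching colour (-0.42, -0.20 and 0.71), and every member lies above its line, while the sign of hsa-miR-25-3p and hsa-miR-18b-5p against 0 depends on the scaling.

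The calls between the lines were narrow. Leaving out 1 array gave adjusted p values of 0.0175 to 0.136 for hsa-miR-106b-5p, 0.00857 to 0.0960 for hsa-miR-93-5p and 0.0111 to 0.136 for hsa-miR-20b-5p, over 6 arrays left out in turn. The calls of hsa-miR-106b-5p and hsa-miR-20b-5p were lost without either trastuzumab array of BT474 (adjusted p = 0.0732 and 0.112, and 0.113 and 0.0928) and without either trastuzumab array of SKBR3 (0.136 and 0.117 for both miRNAs). That of hsa-miR-93-5p was lost without either BT474 PBS array (0.0672 and 0.0941) or either SKBR3 trastuzumab array (0.0960 and 0.0956), and hsa-miR-18b-5p was called at -0.40 without BT474 PBS replicate 2 (0.0323). The differences of the 3 called members stayed between 0.19 and 0.37 throughout. With the replicate number, which follows the slide column, as a block, only hsa-miR-106b-5p was called (0.34, adjusted p = 0.0256), and hsa-miR-93-5p (0.22, 0.0834) and hsa-miR-20b-5p (0.29, 0.0690) were not. The share of all miRNAs called between the lines under this block is not given, so that call is not set apart from it.

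Within slide row 2, 2 BT474 PBS arrays stood against 1 SKBR3 array, whose spread was assumed and not measured, so the p values there carry little weight. The differences were 0.37 for hsa-miR-106b-5p (adjusted p = 0.0970), 0.37 for hsa-miR-93-5p (0.0383) and 0.26 for hsa-miR-20b-5p (0.162). Within slide row 1, with 2 trastuzumab arrays per line, they were 0.24 (0.165), 0.09 (0.385) and 0.28 (0.0816). Both comparisons were contrasts in the limma fit of group means to all distinct arrays. Their adjusted p values therefore rest on a spread pooled over both rows and treatments. With the copied array kept under its SKBR3 label, none of the 5 members was called between the lines, at 0.25, 0.15 and 0.24 for the same 3 miRNAs (adjusted p = 0.203, 0.402 and 0.191), and 6 of 305 miRNAs were called in all. The copy holds the values of a BT474 array, so weaker differences between the lines were fixed beforehand in that setting. Over all 16 alternatives the adjusted p in limma ran from 0.00409 to 0.203 for hsa-miR-106b-5p and from 3.46e-04 to 0.402 for hsa-miR-93-5p. For hsa-miR-20b-5p it ran from 1.17e-04 to 0.260. The upper ends of hsa-miR-106b-5p and hsa-miR-93-5p came from the setting with the copy.

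The probes behind the sums bear on hsa-miR-20b-5p. Its summed signal held both of its probes on the 4 BT474 arrays but 1 probe on the 3 SKBR3 arrays, where the second probe gave 26.0 to 37.5. The first probe supplied 91.7 to 93.1% of the sum in BT474. With the first probe alone, a setting chosen after the data were seen, the difference between the lines was 0.12 in the quantile normalized fit, and it was no longer called (adjusted p = 0.260). On the 75th percentile scale the first probe differed by 0.34. The second was not counted by the software in SKBR3, so no difference is given for it.

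The other members did not have this split between the lines. The 2 probes of hsa-miR-106b-5p differed by 0.45 and 0.52 between the lines on the 75th percentile scale and those of hsa-miR-93-5p by 0.45 and 0.51, so both probes of each lay on the BT474 side. The probes of hsa-miR-25-3p differed by 0.02 and 0.14. The signal of hsa-miR-18b-5p came from 1 of its 3 probes on each array, while the other 2 gave 10.1 to 25.3 and -7.81 to 1.14.

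A ratio of 2 members within an array is free of the scale of that array, and its change from array to array shows whether the members moved unequally. The log2 ratio of hsa-miR-106b-5p to hsa-miR-25-3p, which come from one transcript, was 1.11 and 1.18 on the BT474 PBS arrays, 0.94 and 1.12 on the BT474 trastuzumab arrays, 0.62 on the SKBR3 PBS array and 0.72 and 0.63 on the SKBR3 trastuzumab arrays. All 4 BT474 values lay above all 3 SKBR3 values, with means of 1.09 ± 0.10 (SD, n = 4) and 0.66 ± 0.06 (SD, n = 3). The difference of 0.43 had an exact two-sided permutation p of 0.0571, the smallest that 4 against 3 arrays allow, and 0.190 after adjustment over the 10 pairs of members.

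hsa-miR-93-5p showed the same against hsa-miR-25-3p, with a difference of 0.43 between the lines, and the log2 ratio of hsa-miR-25-3p to hsa-miR-20b-5p differed by -0.41 (both with an exact permutation p of 0.0571 and an adjusted p of 0.190). These were the 3 pairs of 10 whose values did not overlap between the lines. Such pairs were common on these arrays: of the 14878 pairs of the 173 miRNAs detected throughout, 9300 (62.5%) did not overlap, and of the 172 pairs with hsa-miR-25-3p, 124 (72.1%), so the 3 pairs do not set hsa-miR-25-3p apart. Among the AAAGUGC members themselves the values overlapped between the lines: 106b-5p over 93-5p differed by 0.0005 (exact permutation p = 1), 106b-5p over 20b-5p by 0.02 (p = 0.8, exact) and 93-5p over 20b-5p by 0.02 (p = 0.914, exact). The last 2 differences depend on the unequal probe counts of hsa-miR-20b-5p, and with its first probe alone both were 0.13 (exact permutation p = 0.114 and 0.4), the values still overlapping. With that probe alone, its ratio to hsa-miR-25-3p still differed by 0.30, at -2.34 to -2.17 in BT474 and -2.56 to -2.52 in SKBR3.

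The ratios were examined after the values were seen, and with 4 against 3 arrays no ratio could reach an exact p under 0.05, so the test cannot decide on a shift of hsa-miR-25-3p against its cluster. With the copied array under its SKBR3 label the lines no longer separated in any of the 3 ratios to hsa-miR-25-3p, with differences of 0.32 for 106b-5p, 0.29 for 93-5p and 0.33 for 20b-5p (exact permutation p = 0.0857, 0.114 and 0.0571, 4 against 4 arrays). The copy holds the values of a BT474 array, so this overlap was fixed beforehand. The ratio of hsa-miR-93-5p to hsa-miR-20b-5p, of one seed, was 2.26 and 2.13 on the BT474 PBS arrays, 1.92 and 1.90 on the BT474 trastuzumab arrays, and 1.98 to 2.08 in SKBR3. Cross-hybridization between miRNAs of one seed was not tested. Under the alternatives tried, the difference ran from 0.32 to 0.52 for 106b-5p over 25-3p, from 0.28 to 0.54 for 93-5p over 25-3p and from 0.30 to 0.47 for 20b-5p over 25-3p.

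**Figure D3:**
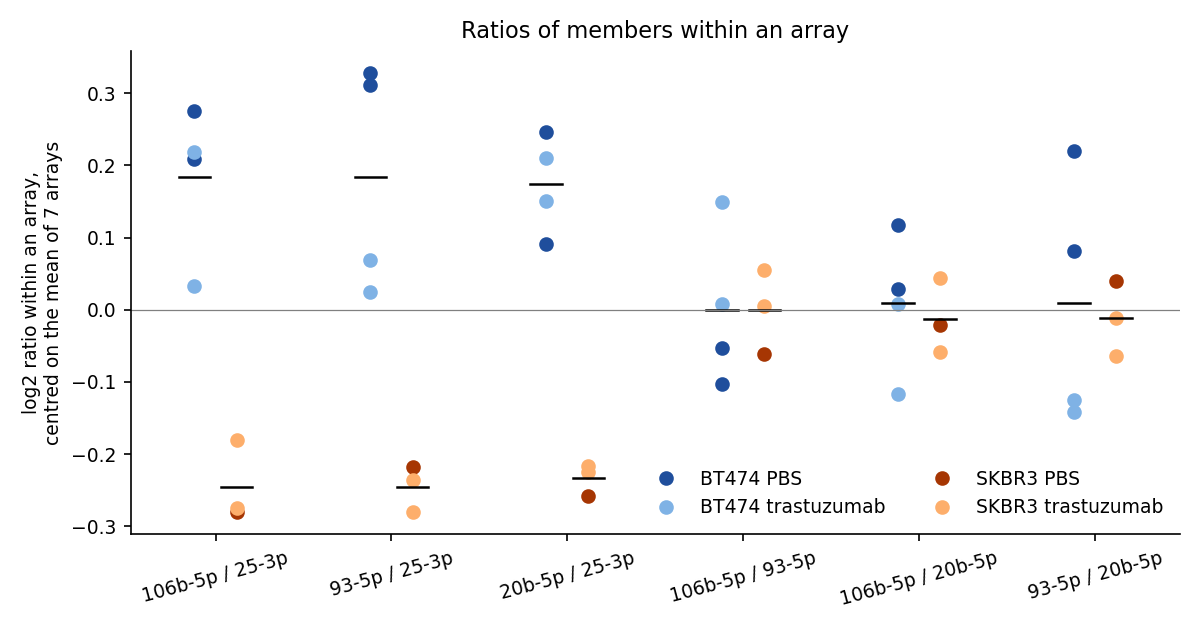
Log2 ratio of 2 members within an array, centred on the mean of the 7 arrays (y axis), for 6 pairs (x axis), with 1 point per array and a bar at the mean of each line. BT474 (left of each pair) and SKBR3 (right) do not overlap in the 3 ratios to hsa-miR-25-3p and overlap in the 3 ratios among members with the seed AAAGUGC, all from summed signals, where 62.5% of all pairs of detected miRNAs do not overlap.

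No member was called for trastuzumab in BT474, a call needing more than a 2-fold change and an unadjusted p below 0.05. In BT474 the normalized log2 differences from PBS were -0.13 for hsa-miR-106b-5p (95% confidence interval -0.57 to 0.31), -0.28 for hsa-miR-93-5p (-0.59 to 0.03), 0.07 for hsa-miR-25-3p (-0.19 to 0.33), -0.45 for hsa-miR-18b-5p (-1.09 to 0.18) and -0.12 for hsa-miR-20b-5p (-0.51 to 0.27). The background was 40 of 285 miRNAs called (14.04%), and 41 (14.4%) at an adjusted p under 0.05 in limma. By limma 0 of the 5 members had an unadjusted p under 0.05, where 104 of 285 miRNAs had, and by the methods' own test 0 of the 5 members. Leaving out 1 array moved the differences widely, from -0.28 to -0.0082 for hsa-miR-106b-5p, -0.38 to -0.18 for hsa-miR-93-5p, 0 to 0.14 for hsa-miR-25-3p, -0.68 to -0.26 for hsa-miR-18b-5p and -0.23 to 0.0095 for hsa-miR-20b-5p. Only for hsa-miR-18b-5p did the interval include a fall by more than 2-fold.

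Scaling moved the whole array here as well. On the 75th percentile scale the median of the 173 miRNAs was -0.23 in BT474, and all 5 members had negative differences, from -0.70 for hsa-miR-18b-5p to -0.24 for hsa-miR-20b-5p. Without normalization the median was 0.22, and 106b-5p, 25-3p and 20b-5p had positive differences. Relative to the median, hsa-miR-18b-5p lay at -0.45 under quantile normalization and at -0.47 under the other 2, hsa-miR-93-5p at -0.28 and -0.29, and hsa-miR-106b-5p at -0.13 and -0.14. On the 75th percentile scale 3 of the 5 had an unadjusted p under 0.05 in limma, and hsa-miR-93-5p an adjusted p of 0.0410 at -0.52, where its adjusted p ran to 0.883 over 14 alternatives. The share of all miRNAs under 0.05 on that scale is not given here, so the 3 are not set apart from it. None of the 5 members reached a fold of 2 in any alternative.

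In SKBR3, with 2 trastuzumab arrays against 1 PBS array assumed to vary like them, the differences were 0.0048 for hsa-miR-106b-5p (95% confidence interval -0.33 to 0.34), 0 for hsa-miR-93-5p, 0.01 for hsa-miR-25-3p (-0.51 to 0.53), -0.14 for hsa-miR-20b-5p (-0.43 to 0.16) and -0.56 for hsa-miR-18b-5p (-0.75 to -0.38). hsa-miR-93-5p had rank 40 on all 3 arrays, so that quantile normalization gave it 1 value. On the 75th percentile scale it differed by 0.096 (-0.55 to 0.74). The background was 26 of 227 miRNAs called (11.45%), and 15 (6.61%) at an adjusted p under 0.05.

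hsa-miR-18b-5p had the largest difference of the 5 members in SKBR3 after quantile normalization (-0.56), at a fold under 2. Its interval rests on the spread of 2 trastuzumab arrays and holds no measure of the spread in PBS. Its normalized log2 signal was 7.62 on the PBS array and 7.04 and 7.07 on the trastuzumab arrays. The difference was -0.14 on the 75th percentile scale and turned to 0.04 without normalization, where the median of the 173 miRNAs was 0.18 and 0.36. It was -0.29 with the copied array kept under its label (limma, adjusted p = 0.676). With the copy, the differences of 106b-5p, 93-5p, 25-3p and 20b-5p were -0.12, -0.17, 0.05 and -0.20, and again 0 of 5 members and 14 of 285 miRNAs were called.

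**Figure D4:**
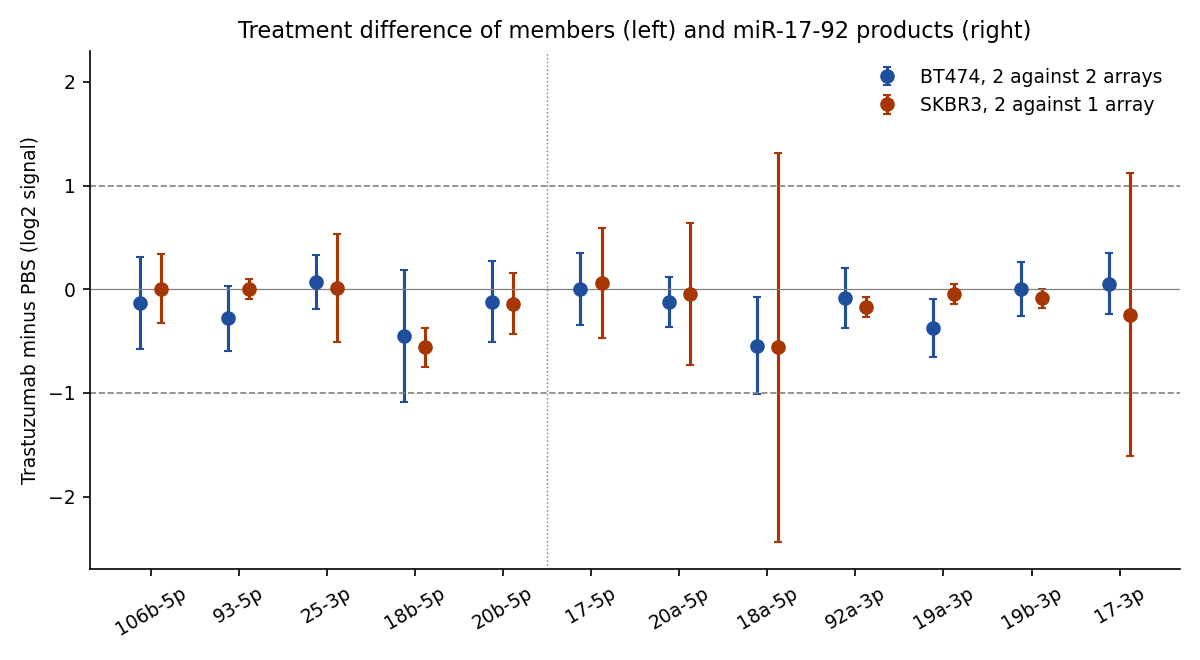
Trastuzumab minus PBS difference (log2 signal, quantile normalized) with 95% confidence intervals from limma, in BT474 (2 against 2 arrays) and SKBR3 (2 against 1 array), for the 5 detected members and the 7 products of miR-17-92 detected on all arrays. Dashed lines mark a fold of 2, which no point passes. The narrowest SKBR3 intervals belong to miRNAs with the same rank on both trastuzumab arrays.

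The response to trastuzumab did not differ between the lines for any member at an adjusted p under 0.05. The BT474 response minus the SKBR3 response was -0.14 ± 0.19 (SE) for hsa-miR-106b-5p, -0.28 ± 0.13 for hsa-miR-93-5p, 0.06 ± 0.12 for hsa-miR-25-3p, 0.11 ± 0.27 for hsa-miR-18b-5p and 0.02 ± 0.16 for hsa-miR-20b-5p, with adjusted p values of 0.247 to 0.966 in limma over 7 arrays, and 0 of 5 had an unadjusted p under 0.05. Of 305 miRNAs, 92 had an unadjusted p under 0.05, and 49 (16.1%) passed at an adjusted p under 0.05. On the 75th percentile scale all 5 values were negative, from -0.62 to -0.38, at a median of -0.41 over the 173 miRNAs, and 3 had an unadjusted p under 0.05 with a lowest adjusted p of 0.0560. These 3 have no share of all miRNAs at that threshold and scale beside them, so they are not set apart. With the copied array, 0 of 5 members and 5 of 305 miRNAs passed.

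The remaining arms of both clusters were mostly below detection. Of 10 further mature products, 2 were detected on all 7 arrays and 8 on none, among them hsa-miR-93-3p, hsa-miR-25-5p, hsa-miR-18b-3p, hsa-miR-20b-3p and hsa-miR-363-5p. The detected pair, hsa-miR-19b-3p and hsa-miR-92a-3p, is also made from miR-17-92 with an identical mature sequence, so their signals cannot be assigned to the X chromosome. Only these 2 were tested, and neither was called in the 4 comparisons, where 14.04%, 11.45%, 68.5% and 16.1% of all tested miRNAs were (BT474 and SKBR3 treatment, lines, difference in response), with line differences of -0.12 for hsa-miR-19b-3p and 0.17 for hsa-miR-92a-3p.

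The miR-17-92 cluster, paralogous to both, was read in the same way. Of its 12 mature products 7 were detected on all arrays and 1, hsa-miR-19b-1-5p, on 3 BT474 arrays. Between the lines 1 of 8 tested was called, hsa-miR-17-5p, at 0.52 ± 0.08 (SE) higher in BT474 (limma, adjusted p = 0.00611), where 68.5% of all tested miRNAs were called and 33.4% called higher in BT474. The list median was 0.11, and that of the 5 members 0.23. For trastuzumab 0 of 8 were called in BT474 and 0 of 7 in SKBR3, against 14.04% and 11.45% of all tested miRNAs. hsa-miR-18a-5p, the paralog of hsa-miR-18b-5p, had differences of -0.54 in BT474 (adjusted p = 0.111) and -0.56 in SKBR3 (adjusted p = 0.440), beside -0.45 and -0.56 for hsa-miR-18b-5p.

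By sequence alone, 9 further miRNAs on the array shared a seed with a member, and 4 were detected on all 7 arrays, the other 5 on none. The 4 are made from miR-17-92, and hsa-miR-92a-3p also from MIR92A2 of miR-106a-363, at chrX:134169544-134169565. They are shown as the closest relatives, seed in capitals, with their miR-17-92 positions.
hsa-miR-17-5p, chr13:91350618-91350640: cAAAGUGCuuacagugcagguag
hsa-miR-20a-5p, chr13:91351072-91351094: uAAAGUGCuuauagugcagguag
hsa-miR-18a-5p, chr13:91350756-91350778: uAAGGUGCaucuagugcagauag
hsa-miR-92a-3p, chr13:91351361-91351382: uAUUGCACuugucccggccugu

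With positions counted from 1 at the 5′ end and the member's base first, hsa-miR-18b-5p differs from hsa-miR-18a-5p by U20A alone, and hsa-miR-106a-5p from hsa-miR-17-5p by A1C alone. hsa-miR-20b-5p differs from hsa-miR-17-5p by C10U and U12C and from hsa-miR-20a-5p by C1U and C10U. hsa-miR-25-3p differs from hsa-miR-92a-3p by C1U, U14C, U18C and A22U. Sequences this close may be read in part by each other's probes, which was not tested.

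Ratios of close pairs varied over the arrays. The log2 ratio of hsa-miR-18b-5p to hsa-miR-18a-5p ranged over 0.52 on the 7 arrays and over 0.18 within BT474, and differed between the lines by -0.16 (exact permutation p = 0.343). Against hsa-miR-17-5p and hsa-miR-20a-5p, of the same seed AAAGUGC, the ratio of hsa-miR-106b-5p differed between the lines by -0.16 and 0.19 and that of hsa-miR-20b-5p by -0.18 and 0.17, each with an exact permutation p of 0.0571, the smallest possible, which 62.5% of all pairs reach. Over the first probe of hsa-miR-20b-5p alone, hsa-miR-17-5p differed by 0.30 (exact p = 0.0571) and hsa-miR-20a-5p by -0.057 (exact p = 0.114). The ratio of hsa-miR-25-3p to hsa-miR-92a-3p, both with the seed AUUGCAC, ranged over 0.57 and was lower in BT474 by a difference of -0.48 (exact permutation p = 0.0571). Pairs of one seed thus included some whose lines overlapped, as with hsa-miR-93-5p and hsa-miR-20b-5p above, and some whose lines did not.

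Profiles over the 7 arrays were compared after quantile normalization, as the root mean square of differences between mean-centred log2 values, among 172 other miRNAs detected on all arrays. hsa-miR-20b-5p was the miRNA most like hsa-miR-106b-5p (0.0689), and hsa-miR-106b-5p the one most like hsa-miR-20b-5p, although they lie in different clusters. hsa-miR-16-5p came second for both (0.0789 and 0.0812), followed by hsa-miR-20a-5p for hsa-miR-106b-5p (0.103) and by hsa-miR-92a-3p for hsa-miR-20b-5p (0.0909). This match was not mutual on the 75th percentile scale, where hsa-miR-20b-5p kept rank 1 for hsa-miR-106b-5p but hsa-miR-106b-5p had rank 2 for hsa-miR-20b-5p, behind hsa-miR-92a-3p. With the first probe of hsa-miR-20b-5p alone on that scale the ranks were 3 and 4, with hsa-miR-93-5p first for hsa-miR-106b-5p and hsa-miR-20a-5p first for hsa-miR-20b-5p.

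The other members had other neighbours. hsa-miR-93-5p was most like hsa-miR-99b-5p (0.0878), hsa-miR-92a-3p (0.0949) and hsa-miR-20b-5p (0.1004). hsa-miR-25-3p was most like hsa-let-7f-5p (0.0505), hsa-miR-4454 (0.0616) and hsa-let-7d-5p (0.0758), with hsa-miR-93-5p, from its own transcript, at rank 23 and hsa-miR-106b-5p at rank 26. hsa-miR-18b-5p had no close neighbour, the first being hsa-miR-4687-3p (0.164), hsa-miR-19a-3p (0.189) and hsa-miR-15b-5p (0.194), and hsa-miR-20b-5p stood at rank 30.

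The labelled lines were set against miRNA markers. Of 7 epithelial miRNAs, hsa-miR-200c-3p and hsa-miR-141-3p were detected on all 7 arrays, and the other 5 on all 4 BT474 arrays and on no SKBR3 array, hsa-miR-200b-3p with signals of 4413 to 6116. These 5 were called higher in BT474 against values at the floor in SKBR3, which adds nothing to their detection. hsa-miR-200c-3p was called lower in BT474 (-0.59) under quantile normalization, while its signals before scaling were 6425 to 9096 in BT474 and 4827 to 5503 in SKBR3. Of the pair from the ERBB2 locus, which encodes HER2, hsa-miR-4728-3p was detected on 2 BT474 arrays, those in PBS, and hsa-miR-4728-5p on the 3 SKBR3 arrays. The listed markers of fibroblasts and muscle (5 miRNAs) and of liver (1) were detected on no array. Of 6 blood markers only hsa-miR-451a was detected, on 1 array (BT474 trastuzumab replicate 2, 57.3). The list left out hsa-miR-1, hsa-miR-133b and hsa-miR-499a-5p, which are known from muscle. hsa-miR-1 and hsa-miR-133b were called higher in BT474 (4.07 and 3.61), as were 33.4% of tested miRNAs. Both were at the floor on every SKBR3 array, so the size of these line differences depends on the floor. In BT474, hsa-miR-1 and hsa-miR-499a-5p were called higher with trastuzumab (1.01 and 3.46), where 14.04% were called. Fewer cells making a miRNA and less of it per cell cannot be told apart in such bulk RNA.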

How the data were processed

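RNA from 2 cell lines and 2 treatments was hybridized to one-colour miRNA arrays. Per the file headers, the deposited intensity values are the output of Feature Extraction 11.5.1.1, with no scaling between arrays: a summed signal per miRNA after background subtraction, set to 0.1 where the software did not detect the miRNA, with its error and flags (detected, saturated), spot medians and probe signals. The log2 values deposited by the authors were quantile normalized per line and served as an alternative, with array medians of 5.28 to 5.35. On each array 201 to 256 miRNAs were detected.

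Here summed signals were quantile normalized over the 7 distinct arrays, set to at least 10 and log2 transformed. miRNAs at that floor on all arrays of a fit were not tested. limma 3.58.1 in R 4.3.3 (lmFit, eBayes) fitted each line alone for treatment (4 and 3 arrays), and 4 group means over 7 arrays for the line and interaction contrasts. Treatment calls used the study's rule (unadjusted p under 0.05, fold above 2), the others a Benjamini-Hochberg adjusted p under 0.05. The p-values measure the spread between the labelled replicates. Ratios were tested by exact permutation in scipy 1.17.1. Some miRNAs had the same normalized value on replicates, and limma offset their zero variance.

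Members, lists and tests were chosen with earlier results of these data known, and the ratios after the values were seen. The text names the 8 members, the other arms of both clusters, miR-17-92, detected miRNAs with a member's seed (bases 2 to 8), the closest relative by sequence, allowing offsets of up to 2 bases (1687 of 2006 array names had a sequence), the 3 most similar profiles and marker lists. Alternatives were other scalings, floors, filters, background correction, the deposited values, other fits, left-out arrays, slide rows and the copied array. On simulated data the fits recovered every planted difference, with some false calls in the line and interaction contrasts. Each planted difference was 2 on the log2 scale, larger than any member difference given here, in values above the floor with a common spread. The recovery therefore does not tell whether differences of the members' size would be found.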

Additional observations from a re-analysis of the deposited data

How the results depend on the processing

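The count of members called for trastuzumab and for the difference in response stayed at 0 of 5 under every alternative run. Between the lines, 3 members were called in the main setting, 5 without normalization, 1 with a floor of 1, 0 with 8 labelled arrays, 1 on PBS arrays only, 0 on trastuzumab arrays only and 0 to 3 with 1 array left out. The cause was not tested. The 8 labelled arrays put a BT474 array under an SKBR3 label, so weaker line differences there were fixed beforehand. The PBS and trastuzumab settings were contrasts within the fit to all distinct arrays. Line counts of members with a floor of 1 and in the PBS and trastuzumab settings have no share of all miRNAs beside them. They are therefore not read as particular to the members. Replicate numbers follow slide columns, and replicate 1 minus 2 correlated at 0.21 between treatments in BT474. With the replicate number as a block, 1 member (hsa-miR-106b-5p) was called between the lines and 22 miRNAs for the difference in response, against 49, and hsa-miR-20b-5p had a response difference of -0.020. In the fit of SKBR3 alone the block could not be used, because its 3 arrays then leave no degrees of freedom. The fit over both lines could hold the block, but the SKBR3 treatment difference was not tested with it there.

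Counts over all miRNAs moved more. For BT474 treatment, 40 became 20 among miRNAs detected on every array, where fewer were tested, 2 with normexp and 85 with the deposited values. It became 26 by the ordinary two-sample t-test. For SKBR3, 26 became 11, 13 and 119 under the first 3 of these and 14 with 8 arrays. With 1 trastuzumab array left out, the SKBR3 arrays alone leave no degrees of freedom, so the fit of 4 groups over both lines was used, and it gave 27 and 35, against 28 in that fit with all arrays. Normexp and the deposited values have no floor, so all 2006 miRNAs were tested there, against 285, 227 and 305 in the main fits, and their counts do not compare directly. Between the lines, 209 became 144 of 173 miRNAs detected on every array, 408 with normexp and 6 with 8 arrays (187 to 206 with 1 left out). For the difference in response, 49 became 25 without normalization, 23 among miRNAs detected on every array, 88 with normexp and 5 with 8 arrays (29 to 74 with 1 left out, the ends being without SKBR3 trastuzumab replicate 1 and without BT474 trastuzumab replicate 2). The split of higher and lower calls depended on scaling: in BT474 20 and 20, then 13 and 28 on the 75th percentile scale and 26 and 13 without normalization. In SKBR3 it was 18 and 8, then 31 and 8, and 31 and 6. Between the lines 102 and 107 became 165 and 21 without normalization, and for the difference in response 30 and 19 became 16 and 35, and 11 and 14.

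Member differences that were not called changed sign under some settings. For BT474 treatment, hsa-miR-106b-5p was 0.086 without normalization, hsa-miR-25-3p -0.25 on the 75th percentile scale and -0.052 in the deposited values, and hsa-miR-20b-5p 0.21 without normalization, 0.024 with normexp, 0.029 in the deposited values, and -0.23 and 0.0095 without BT474 PBS replicate 1 or 2. For SKBR3 treatment, hsa-miR-106b-5p was -0.12 with 8 arrays and 0.045 and -0.034 without trastuzumab replicate 1 or 2, hsa-miR-25-3p -0.084 with normexp, -0.18 in the deposited values, and 0.074 and -0.050 without trastuzumab replicate 1 or 2, hsa-miR-18b-5p 0.041 without normalization, and hsa-miR-20b-5p 0.17 on the 75th percentile scale, 0.35 without normalization, 0.020 with normexp and 0.11 in the deposited values. Between the lines, hsa-miR-25-3p was 0.036 on the 75th percentile scale and 0.94 without normalization, and hsa-miR-18b-5p 0.17, 1.08 and, with normexp, 0.032. For the difference in response, hsa-miR-25-3p was -0.38 on the 75th percentile scale, -0.11 without normalization and -0.01 without BT474 trastuzumab replicate 1, with 0.12 without SKBR3 trastuzumab replicate 2. hsa-miR-18b-5p was -0.56, -0.29, -0.10 with normexp, -0.16 with 8 arrays and -0.11 and 0.32 without BT474 PBS replicate 1 or 2. hsa-miR-20b-5p was -0.41, -0.14, -0.086 and 0.16 without BT474 PBS replicate 1 or 2, -0.02 without BT474 trastuzumab replicate 1 and -0.03 without SKBR3 trastuzumab replicate 1. The cause was not tested. Without the SKBR3 PBS array no contrast that uses that group could be fitted, and the deposited values, scaled per line, were not run across lines.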
